A study of Homo sapiens with 12 samples.

Results

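Transcripts of 7 kinase genes that act on splicing factors were followed in A549 cells: CLK1, CLK2, CLK3, CLK4, DYRK1A, SRPK1 and SRPK2. They were taken by gene symbol and are 7 of the 26334 genes with a read count in every library, and all 7 passed the filter on low counts. Their splicing events were taken by the same symbols, which gave 8 retained-intron events, all of them in CLK genes, and 69 skipped-exon events.

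A549 is an established line of human lung adenocarcinoma cells. Pools of infected cells carried a non-target lentiviral shRNA (shControl, here control cells) or 1 shRNA construct against RNF113A (shRNF113A, here depleted cells), a spliceosome protein, and both kinds of cells had been selected with puromycin at 1 µg/ml for 4 days. Each kind was left untreated or received Cisplatin, a platinum drug that damages DNA, at 25 µg/ml for 20 h in full medium. This dose is as the labels give it. Other assays of the study used the same number in µM, so its unit is uncertain. There were 3 libraries for each of the 4 conditions, 12 in all, described as biological replicates, so that every group rests on 1 cell line and 1 construct. In bulk RNA, fewer cells of a kind and less RNA per cell cannot be told apart.

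The CLK and SRPK kinases phosphorylate serine residues in the arginine and serine rich (RS) domains of SR proteins, a family of splicing factors. SRPK1 and SRPK2 act largely in the cytoplasm and promote the nuclear import of SR proteins. CLK1 to CLK4 are nuclear and release SR proteins from nuclear speckles. DYRK1A, encoded on chromosome 21, is a related dual-specificity kinase that also phosphorylates splicing factors. Transcripts of CLK genes are known for introns next to an alternative exon that stay unspliced in polyadenylated nuclear RNA, called detained introns. Skipping of that exon gives a shortened protein.

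The 4 CLK genes share a layout of 13 exons in their principal transcript, and intron 4 of each begins with a 5′ splice site far from the most common form. CLK1 lies at chr2:201717732-201729422 on the minus strand, CLK2 at chr1:155232659-155248282 on the minus strand, CLK3 at chr15:74890841-74932057 on the plus strand and CLK4 at chr5:178029665-178057616 on the minus strand of hg19. The 5′ splice sites that follow exon 4 are printed because exon 4 and its flanking introns carry most of the events below. Each line gives 6 exon bases and 16 intron bases, and the capitals mark the first bases of the intron.
CLK1 intron 4 (chr2:201724832-201724853): caagatGTatagaatatttttc
CLK4 intron 4 (chr5:178044329-178044350): caagatGTatagaatatttttc
CLK3 intron 4 (chr15:74914552-74914573): agcgatGTacagccacctttcg
CLK2 intron 4 (chr1:155238483-155238504): agcgatGTacaagccaaatcgt
CLK1 intron 7 (chr2:201722425-201722446): tgaattGTaagttcttggtata
The sites of CLK1 and CLK4 were identical over this window. Against the most frequent base at each of the 9 positions around the 5′ splice site (CAGGTAAGT), intron 4 of all 4 genes matched at 4 positions. Of the 234982 introns of the annotation, 2.68% matched at 4 or fewer, and the median was 6. Of the other introns with a listed event, intron 3 matched at 5 in CLK1 and CLK4 and at 6 in CLK3, and CLK1 intron 7, printed for comparison, at 6. Introns 10 and 11 of CLK2, which lie in its listed event, matched at 9 and at 5. Intron 4 was short, with 378 bases in CLK1, 348 in CLK2, 277 in CLK3 and 395 in CLK4, against a median intron of 1775 bases. Its GC content was 26.2% in CLK1 and 30.4% in CLK4, below the median intron, and 48.7% in CLK3 and 51.7% in CLK2, above it. These matches describe the letters of the reference and are no measure of splicing.

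The libraries held 33859097 to 56071514 read pairs, of which 26220526 to 45721152 were assigned to genes in the stranded count used here. The depleted cells with Cisplatin had the lowest of these counts. The epithelial keratins KRT7, KRT8 and KRT18 stood at 1113 CPM (counts scaled to library size) or more in every library. The epithelial adhesion genes were lower. CDH1 had means of 162 CPM in untreated and 52.1 CPM in treated control cells and of 113 and 40.7 CPM in depleted cells, and EPCAM of 10.3, 5.16, 92.3 and 46.4 CPM in the same order. Of the metabolic enzymes on the list for A549 cells, ALDH1A1 had means of 8394, 4123, 7690 and 3128 CPM, AKR1B10 of 3504, 2884, 1136 and 1018 CPM and AKR1C1 of 515, 312, 157 and 109 CPM. Of the markers of other cell types, PTPRC, CD3E, PECAM1, VWF and DCN had group means of at most 0.228 CPM, while CD68, a lysosomal protein of macrophages and other cells, stood at group means of 30.7 to 63.6 CPM and COL1A1, a fibroblast collagen, at 4.86 to 15.9 CPM. Any part of other cells, or of these marker differences, in the values below was not tested. RNF113A itself stood at 20.3, 19.5 and 19.8 CPM in untreated control cells and at 15.3, 15.8 and 16.8 CPM in untreated depleted cells, a fall of 0.31 on the log2 scale (adjusted p = 0.0247, edgeR's quasi-likelihood test with Benjamini-Hochberg adjustment). That call was lost without control replicate 1 or 3 or depleted replicate 1 or 2, with adjusted p from 0.0563 to 0.0940. With Cisplatin it stood at 31.5, 28.9 and 27.7 CPM in control cells and at 25.8, 24.3 and 29.9 CPM in depleted cells (log2 -0.14, adjusted p = 0.233), so in Cisplatin-treated cells the RNA level did not separate the labels. Protein was not measured in these libraries, and the study assessed RNF113A protein of depleted A549 cells by western blot.

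Cisplatin raised CLK1, CLK3 and CLK4 in control cells and in depleted cells, by 1.56-fold to 1.93-fold. CLK2 rose by 1.14-fold in depleted cells only by the call, a difference that did not pass the test of the interaction below. The SRPK and DYRK1A transcripts did not pass in control cells, and SRPK2 and DYRK1A fell in depleted cells. In control cells 3 of 7 genes passed, where 55% of all 15352 genes tested did, and in depleted cells 6 of 7 passed, where 60.2% did. None of the 7 reached 2-fold, a size that 19.8% and 23.1% of all genes reached with the same test. Treated and untreated libraries did not overlap for 3 of 7 genes in control cells and 7 of 7 in depleted cells, as for 56.1% and 74.2% of all genes.

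**Figure D1:**
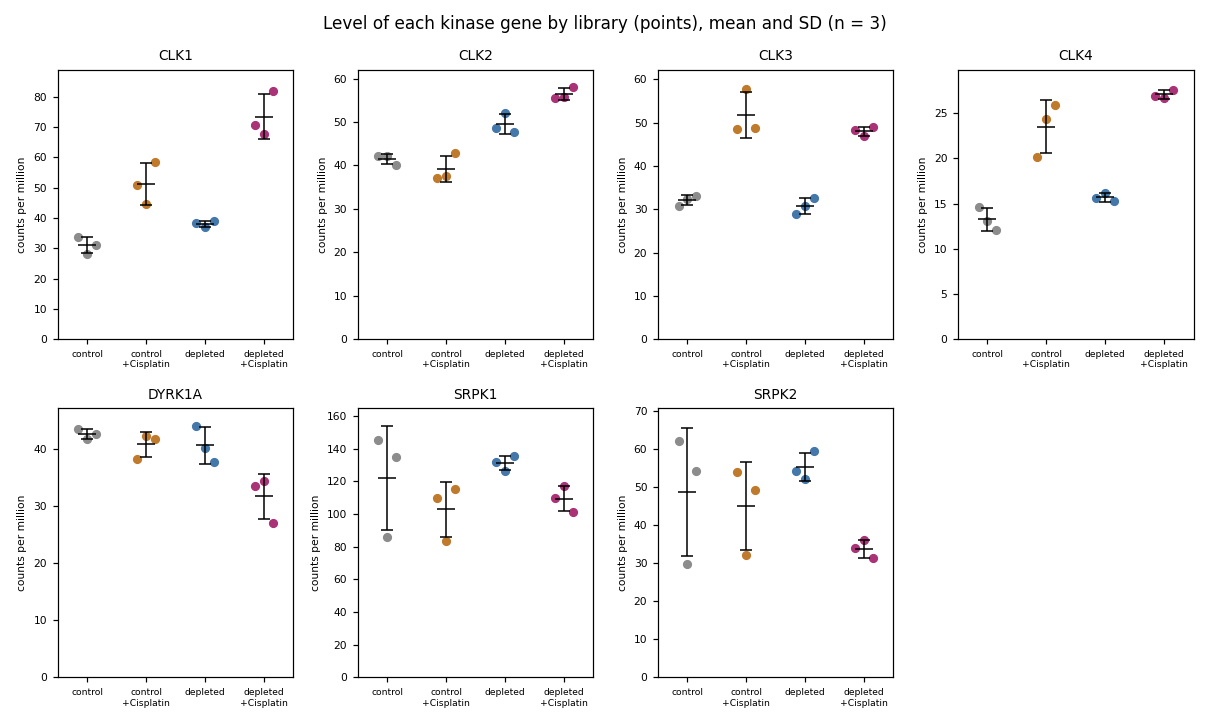
Level of each of the 7 kinase genes in CPM (y axis, from 0) in the 4 conditions (x axis). Points are libraries, the black bar is the mean with SD (n = 3). CLK1, CLK3 and CLK4 lie higher with Cisplatin in both kinds of cells, and SRPK1 and SRPK2 each have 1 low library in both control groups.

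CLK1 stood at 33.7, 28.2 and 31.2 CPM in untreated control cells, at 50.7, 44.4 and 58.3 CPM in control cells with Cisplatin, at 38.2, 37.0 and 38.8 CPM in untreated depleted cells and at 70.5, 67.8 and 82.0 CPM in depleted cells with Cisplatin. The 4 groups did not overlap, with untreated control cells lowest and treated depleted cells highest. Cisplatin raised CLK1 1.65-fold in control cells (log2 0.72, SE 0.11, adjusted p = 0.00013) and 1.93-fold in depleted cells (log2 0.95, SE 0.11, adjusted p = 1.21e-05). CLK4, its closest relative by the splice site above, stood at 14.6, 13.1 and 12.04 CPM in untreated control cells and at 20.2, 24.4 and 25.9 CPM with Cisplatin, and at 15.6, 16.2 and 15.3 CPM and 26.9, 26.7 and 27.6 CPM in depleted cells. Treated and untreated libraries of CLK4 were apart in both kinds of cells. Its rise was 1.77-fold in control cells (log2 0.83, SE 0.10, adjusted p = 2.91e-05) and 1.73-fold in depleted cells (log2 0.79, SE 0.10, adjusted p = 3.55e-05).

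CLK3 stood at 30.8, 32.3 and 33.1 CPM in untreated control cells, at 48.5, 57.8 and 48.7 CPM with Cisplatin, and at 28.9, 30.9 and 32.5 CPM and 48.3, 46.8 and 48.9 CPM in depleted cells. Depleted and control cells overlapped at both states of treatment. Cisplatin raised CLK3 1.61-fold in control cells (adjusted p = 2.38e-05) and 1.56-fold in depleted cells (adjusted p = 3.45e-05), and both calls held in all 21 and all 20 alternatives tried. CLK2 stood apart from its relatives, with 42.3, 42.1 and 40.0 CPM in untreated control cells and 37.2, 37.7 and 42.8 CPM with Cisplatin (log2 -0.08, adjusted p = 0.38). In depleted cells CLK2 stood at 48.5, 52.1 and 47.8 CPM untreated and at 55.5, 55.8 and 58.0 CPM with Cisplatin, a 1.14-fold rise with an adjusted p of 0.0427. This call held in 5 of 20 alternatives and was lost with DESeq2 (adjusted p = 0.0945) and without any of 10 single libraries, where the adjusted p ran from 0.0524 to 0.132.

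DYRK1A stood at 43.6, 41.9 and 42.7 CPM in untreated control cells, at 38.4, 42.4 and 41.8 CPM with Cisplatin, at 44.2, 40.2 and 37.7 CPM in untreated depleted cells and at 33.6, 34.5 and 27.1 CPM in depleted cells with Cisplatin. Only the last of these 4 groups lay below all the others. In depleted cells Cisplatin lowered DYRK1A to 0.780 of the untreated level (log2 -0.36, SE 0.10, adjusted p = 0.00685), and the call held in 20 of 20 alternatives. In control cells the value was -0.06 (adjusted p = 0.597), and with library size in place of TMM scaling it was 0.04.

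SRPK1 and SRPK2, the cytoplasmic kinases, were set apart by the libraries numbered 2 of both control groups. SRPK1 stood at 145, 86.2 and 135 CPM in untreated control cells, at 110, 83.9 and 115 CPM with Cisplatin, and at 132, 127 and 136 CPM and 110, 117 and 101 CPM in depleted cells. SRPK2 stood at 62.3, 29.8 and 54.3 CPM in untreated control cells, at 54.0, 32.1 and 49.2 CPM with Cisplatin, and at 54.2, 52.3 and 59.5 CPM and 34.0, 36.0 and 31.4 CPM in depleted cells. Replicate 2 was the lowest library of both genes in both control groups. Treated and untreated depleted libraries did not overlap, as for most genes. SRPK2 fell to 0.611 of the untreated level in depleted cells (log2 -0.71, SE 0.24, adjusted p = 0.0199), a call lost without treated depleted replicate 3 (adjusted p = 0.0679) or untreated depleted replicate 3 (adjusted p = 0.0600). In control cells SRPK2 gave -0.11 (adjusted p = 0.699).

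For SRPK1 the change with Cisplatin was -0.25 in control cells (adjusted p = 0.232) and -0.26 in depleted cells (adjusted p = 0.194). Equally numbered libraries of the control cells correlated, and with the replicate block in control cells alone the first of these was -0.22 with an adjusted p of 0.0433. Without both control libraries numbered 2, a setting added after the data were seen, SRPK1 fell in control cells by 0.31 (adjusted p = 0.00258) and in depleted cells by 0.26 (adjusted p = 0.00175). Leaving out untreated control replicate 2 alone gave -0.44 (adjusted p = 0.00544) and -0.26 (adjusted p = 0.0401).

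Depletion of RNF113A raised CLK2 in both states of treatment and CLK1 with Cisplatin. In untreated cells 1 of 7 genes passed, where 27.4% of all genes did, and in Cisplatin-treated cells 3 of 7 passed, where 42.9% did. No member reached 2-fold, against 8.66% and 12.3% of all genes. The libraries of depleted and control cells did not overlap for 3 of 7 genes in untreated and 4 of 7 in Cisplatin-treated cells, as for 43.3% and 57.7% of all genes. CLK2 was 1.19-fold higher in untreated depleted than in untreated control cells (log2 0.26, SE 0.07, adjusted p = 0.0235), a call lost without untreated control replicate 3 or untreated depleted replicate 1 or 2 (adjusted p from 0.0530 to 0.0932). With Cisplatin CLK2 was 1.44-fold higher in depleted cells (log2 0.52, SE 0.07, adjusted p = 0.00023), and the 3 depleted libraries lay above all control libraries.

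CLK1 was 1.43-fold higher upon depletion in Cisplatin-treated cells (log2 0.52, SE 0.11, adjusted p = 0.00242). In untreated cells its value was 0.29 with an adjusted p of 0.0640, although its groups did not overlap, and it passed without Cisplatin-treated control replicate 2 (adjusted p = 0.0335) or 3 (adjusted p = 0.0452). DYRK1A was lowered to 0.777 of the control level in Cisplatin-treated cells (log2 -0.36, adjusted p = 0.0101), and in untreated cells its value was -0.07. For SRPK2 depletion gave 0.18 in untreated cells (adjusted p = 0.595) and -0.42 in Cisplatin-treated cells (adjusted p = 0.171). Without both control libraries numbered 2, the SRPK2 value in Cisplatin-treated cells was -0.61 (adjusted p = 2.98e-05) and that in untreated cells -0.08 (adjusted p = 0.504). Leaving out 1 library also ended the miss for SRPK2 in Cisplatin-treated cells, with -0.66 (adjusted p = 0.0316) without treated control replicate 2 and -0.42 (adjusted p = 0.0375) without untreated control replicate 2.

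**Figure D2:**
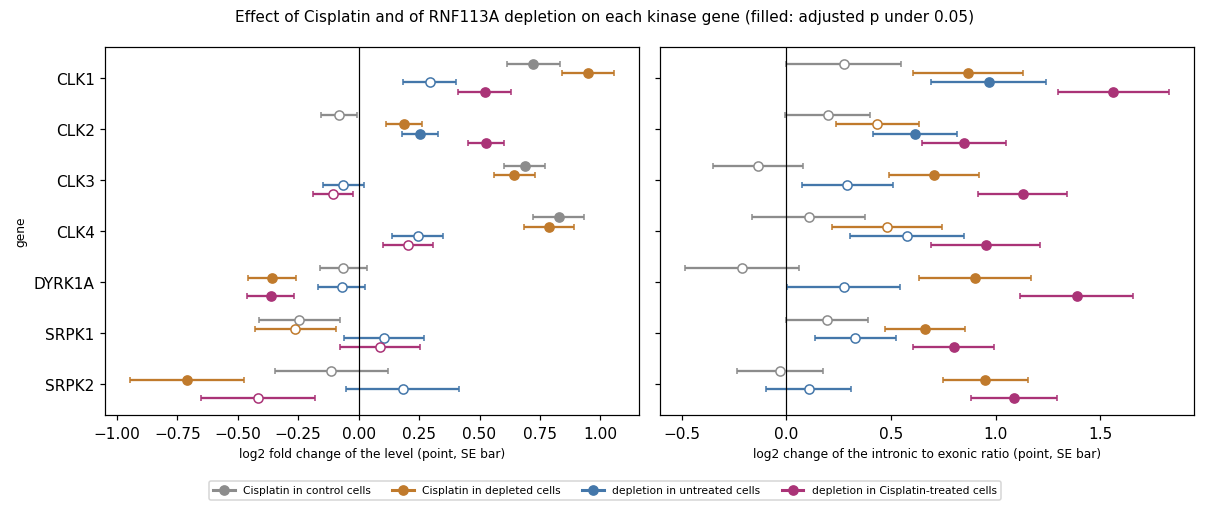
Left, log2 fold change of the level of each gene, and right, log2 change of its ratio of intronic to exonic reads (x axes), for the 4 comparisons, with SE bars and filled points at an adjusted p under 0.05. On the right all 7 points of depletion in Cisplatin-treated cells are filled and lie between 0.80 and 1.56, and none is filled for Cisplatin in control cells.

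None of the 7 genes passed the test of the interaction, which asks whether Cisplatin acted differently in depleted cells, and 4.25% of all genes did. At an unadjusted p under 0.05 there was 1 of 7, CLK2 (log2 0.27, adjusted p = 0.161), and DESeq2 called 0 of 7. No share of all genes at that unadjusted threshold is given here. SRPK2 had the largest estimate, -0.60 with an SE of 0.33 (adjusted p = 0.325), and passed without both control libraries numbered 2 (log2 -0.53, adjusted p = 0.00831). In the model with only the terms for Cisplatin and depletion, 4 of 7 passed for Cisplatin, where 66.8% of all genes did, and 4 of 7 for depletion, where 47.5% did. The Cisplatin calls were the rises of CLK1, CLK3 and CLK4 and a fall of DYRK1A by 0.21, and the depletion calls were rises of CLK1 by 0.41, CLK2 by 0.39 and CLK4 by 0.22 and a fall of DYRK1A by 0.22. The DYRK1A calls held in 14 and 11 of 20 alternatives. The one for Cisplatin was lost without treated control replicate 1, treated depleted replicate 1 or 3 or untreated depleted replicate 1 or 2 (adjusted p from 0.0529 to 0.0821), and the one for depletion without any of 7 single libraries (adjusted p from 0.0504 to 0.0772). The CLK4 rise upon depletion was lost without treated control replicate 1, untreated control replicate 3, treated depleted replicate 1 or 2 or untreated depleted replicate 2 (adjusted p from 0.0516 to 0.107). The depletion count was thus 2 without treated depleted replicate 1 and without untreated depleted replicate 2. SRPK1 (-0.25, adjusted p = 0.0641) and SRPK2 (-0.41, adjusted p = 0.0577) missed for Cisplatin and passed with DESeq2 (adjusted p = 0.0331 and 0.0259).

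Per length of exon, SRPK1 was the most abundant of these transcripts in 3 conditions and CLK1 in the remaining one. In exonic reads per kb of annotated exon, scaled to the exonic reads of the library (RPKM), the untreated control order was SRPK1 at 22.5 ± 5.01 (SD, n = 3 here and below), CLK2 at 15.1 ± 0.691, CLK1 at 11.03 ± 0.237, SRPK2 at 10.8 ± 3.40, CLK3 at 7.59 ± 0.528, DYRK1A at 4.56 ± 0.118 and CLK4 at 3.03 ± 0.283. The libraries of SRPK2, at 6.98 to 13.5, overlapped those of CLK1 and CLK3, and the other neighbours were apart. With Cisplatin the control cells had SRPK1 at 20.4 ± 2.99, CLK1 at 19.1 ± 1.33, CLK2 at 15.3 ± 1.045, CLK3 at 13.2 ± 1.73, SRPK2 at 10.8 ± 2.57, CLK4 at 5.77 ± 0.925 and DYRK1A at 4.70 ± 0.359. There SRPK1 and CLK1 overlapped, as did CLK2 with CLK3, CLK3 with SRPK2 and CLK4 with DYRK1A. Untreated depleted cells had SRPK1 at 24.7 ± 0.654, CLK2 at 17.6 ± 0.616, SRPK2 at 12.6 ± 0.735, CLK1 at 12.4 ± 0.348, CLK3 at 7.25 ± 0.458, DYRK1A at 4.42 ± 0.363 and CLK4 at 3.56 ± 0.124, and only SRPK2 and CLK1 overlapped. In depleted cells with Cisplatin CLK1 came first with 23.8 ± 1.51, followed by SRPK1 at 22.1 ± 2.00, CLK2 at 20.7 ± 0.265, CLK3 at 11.9 ± 0.0272, SRPK2 at 8.22 ± 0.788, CLK4 at 6.59 ± 0.168 and DYRK1A at 3.70 ± 0.527. The libraries of SRPK1 overlapped those of CLK1 and of CLK2. Of the 28 ranks over genes and conditions, 8 changed when the longest transcript set the length.

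The CLK genes carried a larger share of intronic reads than the other 3 genes in every library. Intronic reads are read counts over the whole gene minus those within exons, given here per 100 exonic reads, and the median gene of each library had 5.89 to 16.9 of them. The share grew upon depletion for all 7 genes in Cisplatin-treated cells, from 1.74-fold for SRPK1 to 2.95-fold for CLK1, as it did for most genes: 84% of 11018 genes tested passed. The median log2 change of the 7 genes was 1.09, against 0.97 over all genes.

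**Figure D3:**
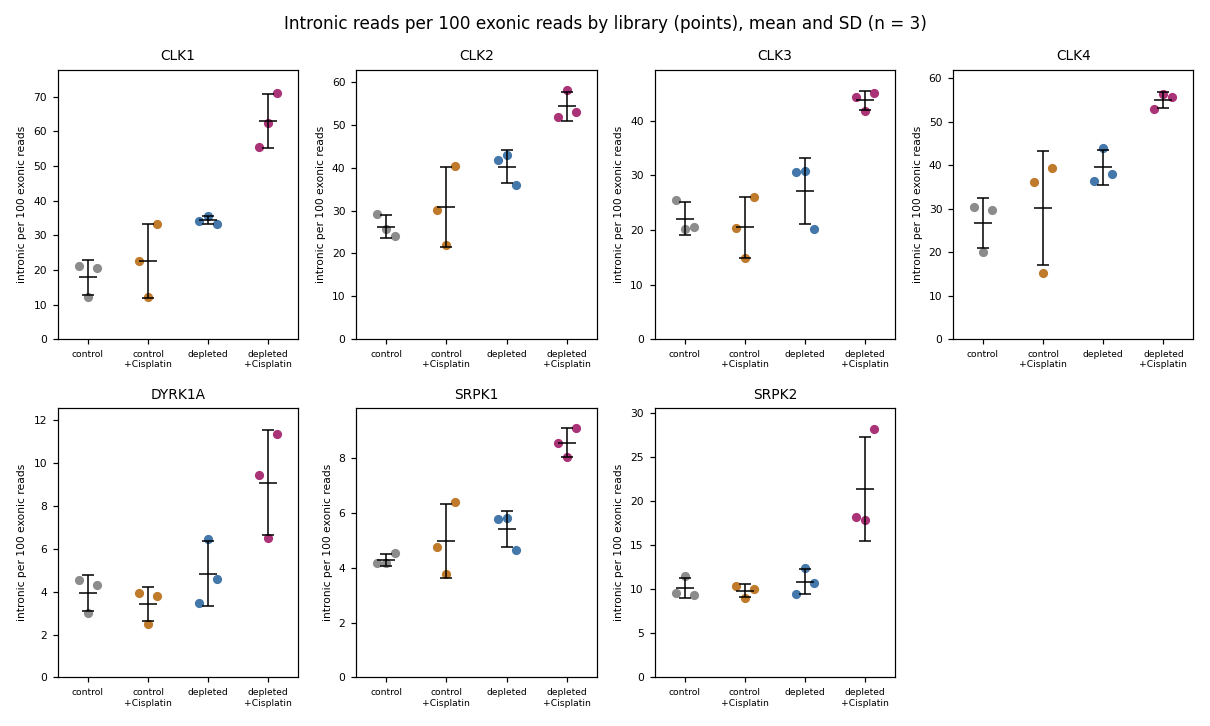
Intronic reads per 100 exonic reads of each gene (y axis, from 0) in the 4 conditions (x axis), with points for libraries and the mean with SD (n = 3). Depleted cells with Cisplatin are highest for all 7 genes, and the CLK genes reach means of 43.8 to 63.0 there.

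CLK1 had 21.2, 12.1 and 20.4 intronic reads per 100 exonic reads in untreated control cells, 22.4, 12.1 and 33.3 with Cisplatin, 34.2, 35.5 and 33.3 in untreated depleted cells and 55.4, 62.4 and 71.1 in depleted cells with Cisplatin. Depleted libraries lay above all control libraries at equal treatment in untreated cells and, far apart, with Cisplatin. The depletion effect was 1.96-fold in untreated cells (log2 0.97, SE 0.27, adjusted p = 0.0169) and 2.95-fold with Cisplatin (log2 1.56, SE 0.27, adjusted p = 4.03e-05). CLK2 had 29.2, 25.6 and 24.0 in untreated control cells, 30.1, 22.0 and 40.4 with Cisplatin, and 41.7, 43.0 and 35.8 and 51.8, 58.0 and 53.0 in depleted cells. Again the depleted libraries were apart from the control libraries in both states. The effect on CLK2 was 1.53-fold (adjusted p = 0.029) and 1.80-fold (adjusted p = 0.000695).

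Those 2 genes were the only members to pass upon depletion in untreated cells, where 29.9% of all genes passed and the median log2 change was 0.33 for the members and 0.47 over all genes. Without untreated control replicate 2, or untreated depleted replicate 1 or 2, the count was 0, and without untreated control replicate 3 it was 1. CLK4, with 30.3, 20.1 and 29.6 in untreated control cells and 36.3, 44.01 and 38.0 in untreated depleted cells, gave 1.49-fold with an adjusted p of 0.103, and passed without treated control replicate 2 (adjusted p = 0.0083) or 3 (adjusted p = 0.0472). CLK3 gave 1.22-fold there (adjusted p = 0.289) and 2.19-fold in Cisplatin-treated cells (adjusted p = 9.28e-05), where its libraries rose from 20.4, 14.96 and 26.1 to 44.4, 41.8 and 45.1. For CLK4 with Cisplatin, 36.0, 15.2 and 39.3 in control cells stood against 52.8, 56.4 and 55.8 in depleted cells, a 1.94-fold rise (adjusted p = 0.0023).

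DYRK1A and the SRPK genes had small shares that grew in the depleted cells with Cisplatin. DYRK1A had 3.94, 2.51 and 3.80 in control cells with Cisplatin and 9.42, 6.504 and 11.3 in depleted cells with Cisplatin, 2.62-fold (adjusted p = 0.000125). SRPK2 had 10.4, 8.99 and 10.1 and then 18.1, 17.8 and 28.1, 2.12-fold (adjusted p = 9.26e-05), and SRPK1 had 4.75, 3.76 and 6.40 and then 8.56, 8.04 and 9.08, 1.74-fold (adjusted p = 0.000865). The groups did not overlap for any of the 7 genes, nor for 83.4% of all genes. The count of 7 of 7 upon depletion in Cisplatin-treated cells was the same without any 1 of the 12 libraries.

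Cisplatin changed the intronic share of 0 of 7 genes in control cells, where 19.3% of all genes passed, with 0 of 7 at an unadjusted p under 0.05. Without Cisplatin-treated control replicate 2, 3 of 7 passed (CLK1, CLK2 and CLK4), and the share of all genes in that setting is not given here. In depleted cells 5 of 7 passed, where 67.3% of all genes did: SRPK2 rose 1.93-fold (adjusted p = 0.0004), DYRK1A 1.87-fold (adjusted p = 0.00544), CLK1 1.83-fold (adjusted p = 0.00692), CLK3 1.63-fold (adjusted p = 0.00665) and SRPK1 1.58-fold (adjusted p = 0.00478). The CLK3 call was lost without untreated depleted replicate 3 (adjusted p = 0.0630), and CLK2 (adjusted p = 0.0575) and CLK4 (adjusted p = 0.108) passed without treated control replicate 2 (adjusted p = 0.0107 and 0.00897). The interaction passed for 0 of 7, where 3.63% of all genes passed, and 3 of 7 had an unadjusted p under 0.05 (CLK3, DYRK1A and SRPK2). The share of all genes at that unadjusted threshold is not given here. The median log2 interaction was 0.59 for the members and 0.47 over all genes. Without Cisplatin-treated control replicate 3, 5 of 7 passed (CLK1, CLK3, DYRK1A, SRPK1 and SRPK2), and without replicate 2 of that group 1 did (SRPK2). Replicate 3 had the highest intronic share over all genes together of the control cells. The shares of all genes passing in these settings are not given here, so these counts cannot be read as particular to the members.

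Single introns of the CLK genes were retained more often upon depletion. The 8 events give an inclusion level, the share of transcripts that keep the region, computed from reads of both forms divided by their lengths. Where a region holds an exon, reads of that exon when spliced also count as keeping the region. In untreated cells 4 of the 8 passed, where 17.4% of 3434 events tested did (17.1% upwards), and in Cisplatin-treated cells 5 of 8 passed, where 26% of 3541 did (25.3% upwards), and all of these were rises. The median log2 change was 1.10 and 1.41 for the 8 events, against 0.56 and 0.82 over all events. The count in untreated cells was 2 without untreated control library b or untreated depleted library a or b. Events of 1 gene share reads and are not independent. The order of the 3 libraries in these tables is not named, so they are called a, b and c.

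**Figure D4:**
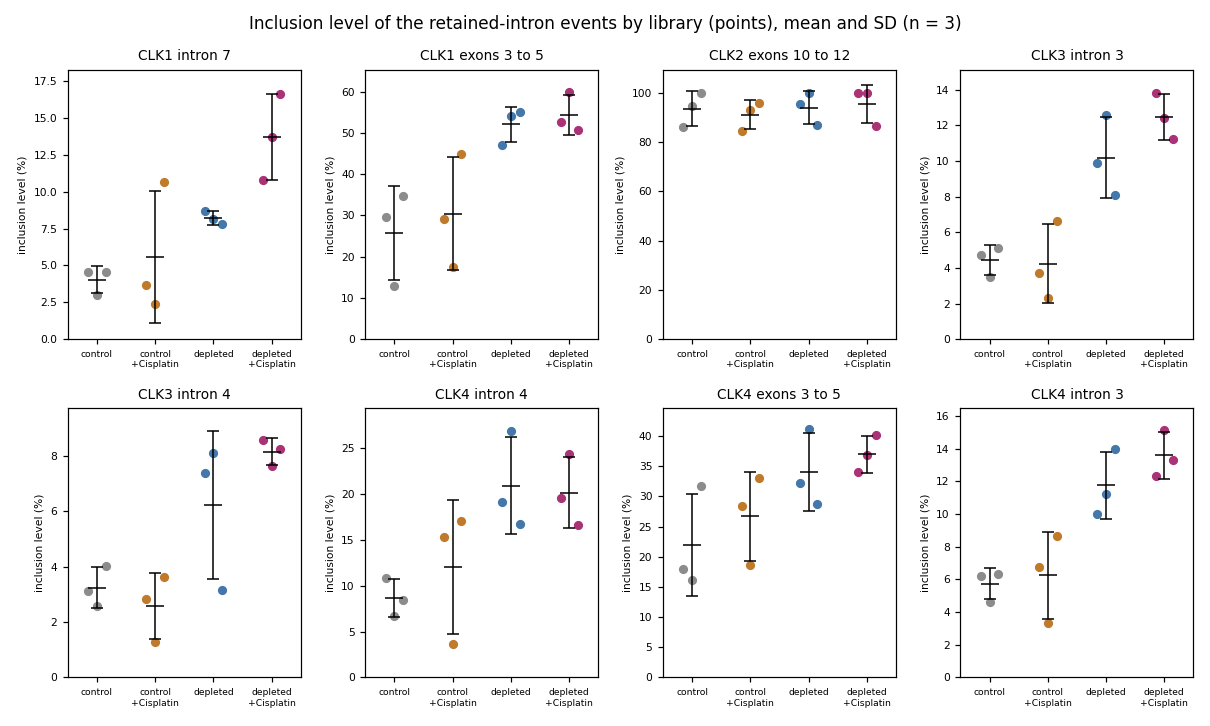
Inclusion level in percent of the 8 retained-intron events of the CLK genes (y axes, from 0) in the 4 conditions (x axis), with points for libraries and the mean with SD (n = 3). CLK1 exons 3 to 5 reach means of 52.1% and 54.4% in depleted cells, and CLK2 exons 10 to 12 lie above 80% in every condition. Regions named by exons hold an exon whose spliced reads count as inclusion.

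The largest difference was that of the region between exons 3 and 5 of CLK1 (chr2:201724470-201725960), which holds introns 3 and 4 and the 91-base exon 4 between them and whose second 5′ splice site is the first one printed above. Its inclusion level was 29.6%, 12.9% and 34.7% in untreated control cells, 29.1%, 17.4% and 44.8% with Cisplatin, 47.1%, 54.1% and 55.0% in untreated depleted cells and 52.7%, 59.9% and 50.6% in depleted cells with Cisplatin. All depleted libraries lay above all control libraries. Depletion raised it by 26.3 percentage points in untreated cells (log2 1.75, SE 0.34, adjusted p = 2.6e-05) and by 23.9 points with Cisplatin (log2 1.52, SE 0.38, adjusted p = 0.00163), and both calls held in 9 of 9 alternatives. It was the only one of the 8 to pass with levels at least 0.2 apart, as 0.99% and 2.37% of all events did. Its skipping reads, 99, 147, 60 and 84 in the 4 conditions, were the same reads that joined exon 3 to exon 5 in the exon 4 event, and the region includes exon 4, so reads of spliced exon 4 lie within it.

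Intron 7 of CLK1 (chr2:201721709-201722440) was kept in 4.57%, 3.01% and 4.54% in untreated control cells and in 8.71%, 8.12% and 7.80% in untreated depleted cells. With Cisplatin the levels were 3.66%, 2.37% and 10.7% in control cells and 10.8%, 13.7% and 16.6% in depleted cells. The groups did not overlap at either state, but library c of the treated control cells came close to the lowest treated depleted library. The rise upon depletion was 1.09 on the log2 scale in untreated cells (adjusted p = 0.0213), lost without untreated control library b or untreated depleted library a or b (adjusted p from 0.0651 to 0.101), and 1.61 with Cisplatin (adjusted p = 0.00161), which held in 9 of 9 alternatives.

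In CLK3, intron 3 (chr15:74912567-74914460) was kept in 4.74%, 3.51% and 5.10% in untreated control cells and in 9.90%, 12.6% and 8.10% in untreated depleted cells, and with Cisplatin in 3.73%, 2.33% and 6.65% and in 13.8%, 12.4% and 11.2%. All depleted libraries lay above all control libraries. Depletion raised it by 1.29 (log2, SE 0.29, adjusted p = 0.000306) and by 1.80 (SE 0.35, adjusted p = 7.57e-05), in 9 of 9 alternatives each. Intron 4 (chr15:74914558-74914834) rose by 1.79 with Cisplatin (adjusted p = 0.001), from a mean of 2.58% ± 1.20 to 8.15% ± 0.483 (SD, n = 3). In untreated cells its means were 3.24% and 6.22% (adjusted p = 0.0789), and without untreated depleted library c, the lowest of its group at 3.17%, it passed (adjusted p = 0.0289).

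In CLK4 introns 3 and 4 and the whole region between exons 3 and 5 were listed, with fewer reads than in CLK1. Intron 4 (chr5:178043950-178044344) was listed beside an exon annotated to hold intron 3, but its reads do not require that intron 3 was kept. Its mean was 8.65% ± 2.04 in untreated control and 20.9% ± 5.24 in untreated depleted cells (log2 1.51, adjusted p = 0.0222). It passed in 4 of 9 alternatives and was lost without untreated control library b or c or untreated depleted library a or b, with adjusted p from 0.0576 to 0.194. With Cisplatin its value was 1.02 (adjusted p = 0.0915), and it passed without treated control library c (adjusted p = 0.0122). Intron 3 (chr5:178044436-178045556) had means of 6.25% ± 2.68 and 13.6% ± 1.42 with Cisplatin (log2 1.31, adjusted p = 0.0127), a call lost without treated control library b or treated depleted library b or c (adjusted p from 0.0599 to 0.0933). The region between exons 3 and 5 had means of 22.0%, 26.7%, 34.0% and 37.0% in the 4 conditions and passed in none of the comparisons. That region includes exon 4, so reads of spliced exon 4 lie within it. The CLK2 event, the region between exons 10 and 12 (chr1:155233832-155234258), rested on 3 to 5 skipping reads for each condition and could not show a difference at this depth. Reads of the spliced exon inside it count as inclusion, so its high level does not show that its introns were kept.

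Few of these introns were called for Cisplatin, which does not show that the changes were small. In control cells 0 of 8 passed, where 0.493% of 3448 events did, with 0 at an unadjusted p under 0.05. In depleted cells 1 of 8 passed, where 15.7% did: intron 7 of CLK1 rose by 0.80 (adjusted p = 0.0309). That call held in 3 of 9 alternatives and was lost without treated depleted library b or c or any of the untreated depleted libraries (adjusted p from 0.0590 to 0.187). The interaction passed for 0 of 8, where 0.0309% of all events passed, with 0 at an unadjusted p under 0.05.

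Exon 4 itself was skipped to different extents in the 4 CLK genes, and its inclusion passed in no comparison. In untreated control cells it was included in 69.6%, 54.1% and 73.4% in CLK1, in 77.6%, 82.4% and 83.5% in CLK2, in 95.7%, 97.5% and 98.0% in CLK3 and in 69.7%, 73.7% and 84.8% in CLK4. CLK3 thus kept exon 4 almost always, above all libraries of the other genes. In the depleted cells with Cisplatin the means were 77.2% ± 2.34 for CLK1, 68.4% ± 5.68 for CLK2, 96.1% ± 0.970 for CLK3 and 75.9% ± 3.86 for CLK4 (SD, n = 3). For CLK2 the libraries were 81.6%, 80.1% and 85.9% in untreated depleted cells and 71.0%, 72.2% and 61.8% with Cisplatin. These 2 groups did not overlap, but the difference of -14.2 points had an adjusted p of 0.367.

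**Figure D5:**
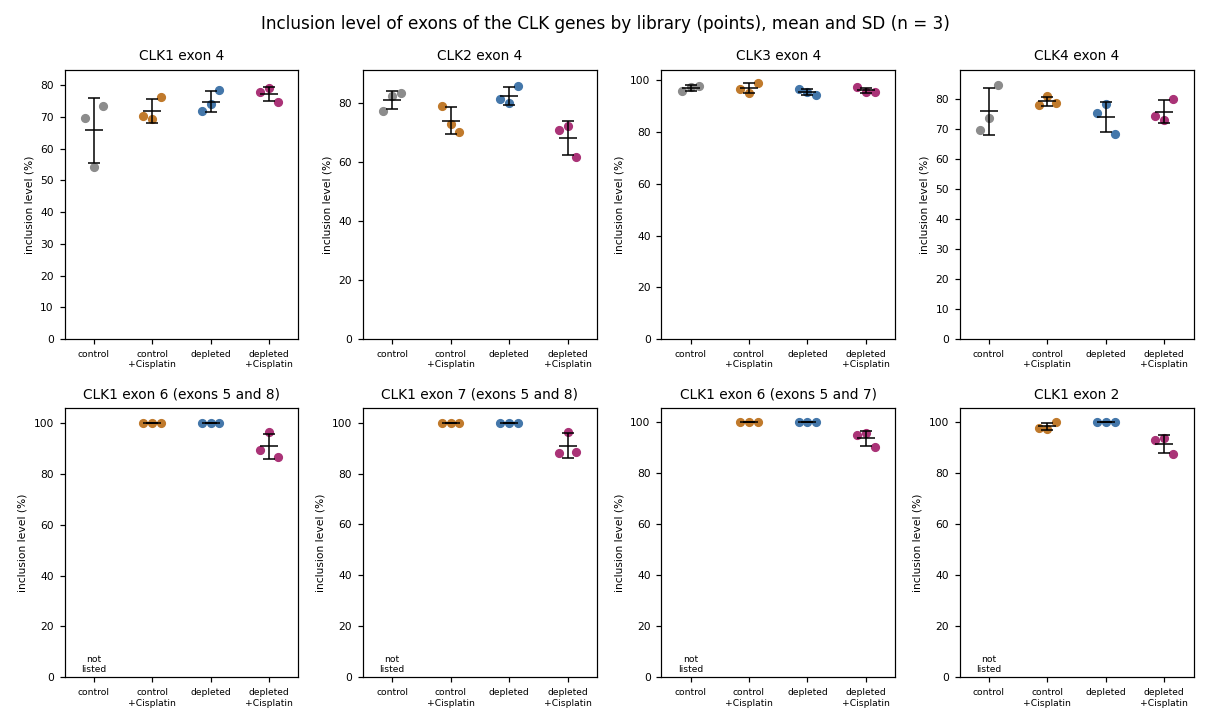
Inclusion level in percent (y axes, from 0) of exon 4 of the 4 CLK genes and of 4 CLK1 events in the 4 conditions (x axis), with points for libraries and the mean with SD (n = 3). The lower 4 events are not listed for untreated control cells, and only their libraries of depleted cells with Cisplatin are all below 97%.

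Of the 69 skipped-exon events 62 had enough reads in at least 1 comparison. The 4 that were called, all in CLK1, are listed only in the tables of the 2 comparisons that include depleted cells with Cisplatin, and in 3 of them no other library in those tables had a skipping read. How events are listed fixed the direction of those 3, the calls of the 4 are no independent support, and their reads are given as a description. They were 4 of 52 events tested for Cisplatin in depleted cells, where 1.81% of 60616 events passed (0.894% downwards), and 4 of 46 for depletion in Cisplatin-treated cells, where 0.721% of 59768 did (0.54% downwards). In control cells 0 of 42 passed for Cisplatin (2 at an unadjusted p under 0.05, 0.315% of all events called), upon depletion in untreated cells 0 of 42 (0 unadjusted, 0.0939%), and for the interaction 0 of 27 (0 unadjusted, 0.0291%). None of the 4 differed by 0.2 or more, as 0.261% and 0.0569% of all events did.

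Exons 6 and 7 of CLK1 were lost in a few percent of reads. A junction from exon 5 to exon 8, without exons 6 and 7, had 14, 4 and 12 reads in depleted cells with Cisplatin and 0 in the treated control and the untreated depleted libraries. It makes 2 of the 4 events, for exon 6 (117 bases) and exon 7 (167 bases), with the same skipping reads. A junction from exon 5 to exon 7 had 9, 7 and 13 reads in the same libraries and again 0 in the other 6. The 30 reads of the exon 5 to 8 junction were 3.70% of the 811 reads of the exon 6 event, against 0 of 926 in treated control cells and 0 of 559 in untreated depleted cells, which allow up to 0.324% and 0.537% (3 reads, counting error only). These shares of reads are not scaled by the lengths of the forms. The scaled inclusion levels in depleted cells with Cisplatin had means of 90.75% for exon 6 and 90.93% for exon 7 against this junction. Against the exon 5 to 7 junction exon 6 had a mean of 93.57%. No fold is given against groups at 0.

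The remaining event was the loss of exon 2 (161 bases), with 10, 8 and 16 reads in depleted cells with Cisplatin, 3, 4 and 0 in treated control cells and 0 in untreated depleted cells. Exon 2 was kept in 92.9%, 93.9% and 87.6% in the first of these groups. Its call for depletion in Cisplatin-treated cells was lost without any 1 of the 6 libraries, with adjusted p from 0.0944 to 0.711. For Cisplatin in depleted cells the count of 4 was 1 without untreated depleted library a or b and 2 without library c, and single calls were also lost without treated depleted library a (exon 7) or c (exon 6 in the exon 5 to 7 junction). The level of the 4 events in untreated control cells is not analysed here. Exon 2 has a further listed event with the same skipping junction, tested only for Cisplatin in control cells. That event had an unadjusted p under 0.05 there and did not pass after adjustment, and its reads are not given here.

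For DYRK1A and the SRPK genes the event with the most reads of its rarer form was taken, and none passed. An SRPK2 exon of 93 bases was included in 7.66%, 5.10% and 5.53% in untreated control cells and in 10.6%, 17.9% and 13.7% in depleted cells with Cisplatin (Cisplatin in depleted cells: 7.74 points, adjusted p = 0.302). An SRPK1 exon of 96 bases was included in at most 4.42% in every library. A DYRK1A exon of 132 bases rested on 6 to 35 reads a library and was tested in 2 comparisons only.

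The partners of these kinases were described from 3 lists. Of 14 SR proteins 2 rose and 7 fell with Cisplatin, with a median log2 change of -0.27 against 0.03 over all genes, where 34.8% rose and 32.1% fell. TRA2B, an SR-like splicing activator, fell by 0.98 (mean 261 CPM in untreated and 139 CPM in treated control cells), and SRSF8 rose by 0.33. Upon depletion, where 23.5% of all genes rose and 24% fell, 4 rose and 4 fell, among them SRSF5 by 0.27 upwards and SRSF12 with -0.46 at about 2 CPM. Of 11 nuclear speckle proteins with RS domains 8 rose and 1 fell with Cisplatin, with ACIN1 at 0.70 and THRAP3 at -0.35, and 7 rose and 0 fell upon depletion, with SRRM2, a large speckle scaffold, at 0.70. Of 12 other kinases of the CLK, DYRK, SRPK, HIPK and related families 8 rose and 2 fell with Cisplatin, and 0 rose and 5 fell upon depletion. HIPK2, a kinase that acts in the DNA damage response, fell by 1.21 and by 1.72, from a mean of 97.0 CPM in untreated control cells to 12.7 CPM in depleted cells with Cisplatin. SRPK3, the muscle member of the SRPK family, had 0 or 1 reads in each untreated library and 8 to 29 with Cisplatin.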

How the data were processed

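RNA sequencing of 12 stranded mRNA libraries was re-analysed. The authors sequenced read pairs, removed ribosomal, transfer and mitochondrial reads, trimmed to 73 bases, aligned to hg19 with STAR 2.5.2b and deposited raw counts per gene. The intronic and exonic counts were made by the authors with HTSeq on Gencode release 19 genes, and its strand setting is not given in the sources used here. Splicing tables from rMATS hold raw inclusion and skipping reads for each library, which the authors deposited as counts joined in 1 cell. Their p-values, FDR and level differences are the authors' own comparisons and were not used, nor were tables of other event kinds and a merged annotation.

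Tests used edgeR version 4.0.16 (R version 4.3.3; TMM, filterByExpr, quasi-likelihood test, Benjamini-Hochberg adjustment over all features, call at adjusted p under 0.05). For levels and intronic shares, conditions were compared in 1 fit with a mean for each of the 4 conditions. An additive model of the levels held only the terms for Cisplatin and depletion. Splicing events were fitted within the 6 libraries of each comparison, and their interaction over all 12 libraries. Intronic against exonic reads, and inclusion against skipping reads, were fitted with a term for each library. Genes needed a mean of 10 intronic reads and at least 1 exonic read in every library, and events 10 reads in every library compared. Tests were checked on simulated data. Coordinates and sequences come from hg19 and its annotation. Figures were drawn with matplotlib 3.10.9. Alternatives included DESeq2 1.42.0, other scalings, filters and limits, unstranded counts, the replicate block and the omission of each library. Shares of all features called are those of the main setting at an adjusted p under 0.05. None is given for counts at an unadjusted p or in the alternatives.

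Deviations of equally numbered libraries correlated most between untreated and treated control cells, with r of 0.63, 0.73 and 0.48 over 9779 genes. Replicates 1 and 2 there matched their own number best, and replicate 3 did not. Between untreated and treated depleted cells r was 0.41, -0.06 and 0.30, and replicates 1 and 3 matched their own number best. Members, gene lists and events were chosen with earlier results of these data known. All 7 members are named, with their retained-intron events, the skipped-exon events that passed or had the largest smaller form, the largest changes of each list and the 2 most correlated genes. Antisense neighbours overlap CLK2 (HCN3), CLK3 (EDC3), SRPK1 (LHFPL5) and SRPK2 (KMT2E), whose reads cannot be told apart where counting ignored strand.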

Additional observations from a re-analysis of the deposited data

How the results depend on the processing

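The rises of CLK1, CLK3 and CLK4 with Cisplatin in both kinds of cells, of CLK1 and CLK2 upon depletion with Cisplatin, the falls of DYRK1A in depleted cells with Cisplatin and the 7 intronic shares upon depletion with Cisplatin kept their direction and call in every alternative run. So did the inclusion rises upon depletion of CLK1 exons 3 to 5 and CLK3 intron 3 at both states, and of CLK1 intron 7 and CLK3 intron 4 with Cisplatin. The rises of CLK1 and CLK2 upon depletion in the additive model also held throughout. Much of the rest is limited by groups of 3 libraries, of which control replicate 2 stood apart for the SRPK genes, and by splicing events of few reads. Control replicate 2 also had the lowest intronic share over all genes together in each control group. It was 4.56 per 100 exonic reads untreated and 4.90 with Cisplatin. The cause of the changes below was not tested.

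The count of genes called upon depletion in untreated cells went from 1 to 2 with library size scaling and to 2 with the replicate block, where CLK1 had an adjusted p of 0.0256. That block also took away CLK2 for Cisplatin in depleted cells (adjusted p = 0.0600) and added SRPK1 (adjusted p = 0.0474) and SRPK2 (adjusted p = 0.0415) for Cisplatin overall. Outside the control cells same-numbered libraries correlated less, with r from -0.20 to 0.41. No paired analysis was possible for the splicing events because their libraries carry no replicate numbers. Without both control libraries numbered 2, a setting chosen after seeing the data, as was the block within control cells, 1 gene was called for the interaction of the level and 2 for that of the intronic share. The ranks of levels changed in 8 cases with the longest transcript. In 1 fit over all 12 libraries the retained introns called were 0 for Cisplatin in depleted cells and 2 upon depletion in untreated cells, and the skipped exons called were 0 for Cisplatin in depleted cells and 0 upon depletion with Cisplatin, since the 4 CLK1 events are not in all tables. With a limit of 0.1 on the difference, 2 retained introns were called upon depletion in untreated cells.

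Values that changed sign were all uncalled. With library size scaling Cisplatin in control cells gave 0.019 for CLK2 and 0.038 for DYRK1A. Without both control libraries numbered 2, the level of SRPK1 gave -0.068 for depletion, -0.042 upon depletion with Cisplatin, -0.093 upon depletion in untreated cells and 0.051 for the interaction, that of SRPK2 -0.076 upon depletion in untreated cells and that of CLK3 0.039 for the interaction, and the intronic share for Cisplatin in control cells gave 0.015 for CLK3 and 0.11 for SRPK2.

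With 1 library left out, the genes called ranged from 3 to 6 for Cisplatin, 3 to 4 for Cisplatin in control cells, 4 to 7 for Cisplatin in depleted cells, 2 to 4 for depletion, 0 to 2 upon depletion in untreated cells, 3 to 4 upon depletion with Cisplatin and stayed 0 for the interaction. For the intronic share they ranged from 0 to 3, 4 to 7, 0 to 3 and 7 to 7 in the 4 comparisons in the order Cisplatin in control cells, Cisplatin in depleted cells, depletion in untreated cells and depletion with Cisplatin, and from 0 to 5 for the interaction. Retained introns ranged from 0 to 0, 0 to 1, 2 to 5 and 4 to 6 in that order, and skipped exons from 0 to 0, 1 to 4, 0 to 0 and 3 to 3, both with 0 for the interaction. RNF113A upon depletion in untreated cells ranged from -0.35 to -0.28.

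Uncalled values that changed sign without 1 library had these ranges on the log2 scale. Inclusion for Cisplatin in control cells ranged from -0.43 to 0.74 for CLK1 intron 7, -0.19 to 0.87 for CLK1 exons 3 to 5, -1.25 to 0.40 for CLK2 exons 10 to 12, -0.59 to 0.21 for CLK3 intron 3, -0.72 to 0.017 for CLK3 intron 4, -0.48 to 0.50 for CLK3 exon 4, -0.073 to 1.05 for CLK4 intron 4, -0.28 to 0.46 for CLK4 intron 3 and -0.82 to 0.91 for the DYRK1A exon. Inclusion for Cisplatin in depleted cells ranged from -0.013 to 0.25 for CLK1 exons 3 to 5, -0.93 to 3.38 for CLK2 exons 10 to 12, -0.30 to 0.17 for CLK4 intron 4 and -0.055 to 0.28 for CLK4 exon 4. Inclusion upon depletion with Cisplatin ranged from -0.92 to 0.065 for CLK3 exon 4. Inclusion upon depletion in untreated cells ranged from -0.42 to 1.58 for CLK2 exons 10 to 12, -0.053 to 0.24 for CLK2 exon 4, -0.11 to 0.20 for its 85-base form, -0.37 to 0.19 for CLK4 exon 4, -0.74 to 1.09 for the DYRK1A exon, -1.64 to 1.39 for the SRPK1 exon and -0.18 to 0.23 for the SRPK2 exon. Inclusion for the interaction ranged from -0.74 to 0.31 for CLK1 exons 3 to 5, -0.45 to 0.16 for CLK1 exon 4, -0.61 to 3.71 for CLK2 exons 10 to 12, -0.26 to 0.72 for CLK3 exon 4, -0.21 to 0.54 for CLK4 intron 3, -0.48 to 0.085 for CLK4 exon 4 and -0.26 to 2.81 for the SRPK1 exon. Intronic shares for Cisplatin in control cells ranged from -0.076 to 0.64 for CLK1, -0.025 to 0.42 for CLK2, -0.33 to 0.075 for CLK3, -0.15 to 0.51 for CLK4, -0.013 to 0.37 for SRPK1 and -0.087 to 0.057 for SRPK2. Intronic shares for the interaction ranged from -0.032 to 0.63 for CLK4. Levels for Cisplatin in control cells ranged from -0.37 to 0.10 for SRPK2. Levels upon depletion with Cisplatin ranged from -0.087 to 0.14 for SRPK1. Levels upon depletion in untreated cells ranged from -0.093 to 0.25 for SRPK1 and -0.076 to 0.40 for SRPK2. Levels for the interaction ranged from -0.14 to 0.0052 for CLK3, -0.18 to 0.023 for CLK4 and -0.19 to 0.18 for SRPK1.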

Other observations

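Over the 12 libraries the 7 kinases fell into several courses, given here as descriptions since libraries of 1 condition share its treatment. CLK1 and CLK4 ran closest to each other among the CLK genes (Pearson r = 0.94 of log2 CPM), followed by CLK3 and CLK4 (0.88) and CLK1 and CLK3 (0.76), while CLK2 and CLK3 had r = -0.02. SRPK1 and SRPK2 had r = 0.86 with each other, and DYRK1A had r = -0.80 with CLK1.

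Among 9778 genes with at least 10 CPM on average, those most like CLK1 were NFRKB, a subunit of the INO80 chromatin remodeller, and YOD1, a deubiquitinase, both at r = 0.99. For CLK4 they were CCNL1, a cyclin found in nuclear speckles, and MAMDC4, both at 0.98, and for CLK2 SH2B1 (0.98) and EIF4A2, an RNA helicase of translation initiation (0.97). CLK3 had PRMT9, an arginine methyltransferase, and CSNK2B, the regulatory subunit of casein kinase 2, both at 0.99. DYRK1A had AMBRA1 (0.97) and STXBP4 (0.96), SRPK1 had PRKAR2A (0.97) and YWHAG (0.97), and SRPK2 had the receptors MET (0.97) and F2R (0.96).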
